A study of Mus musculus with 6 samples.

Results

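The 10 genes described here set the pace of the G1 phase and of entry into S phase: the D-type cyclins *Ccnd1*, *Ccnd2* and *Ccnd3* with their kinases *Cdk4* and *Cdk6*, the E-type cyclins *Ccne1* and *Ccne2* with their kinase *Cdk2*, and the transcription factors *E2f1* and *E2f8*. They were taken by symbol from a table of 24972 genes, with no cut on their values. The list was, however, chosen with earlier results of these data known. All 10 genes passed the filter on low values, as did 14456 genes in all. The table holds mRNA sequencing of isolated lung endothelial cells (iLECs), CD31-positive cells pulled from digested lungs with antibody-coated beads at postnatal day 7 (P7). The 3 control libraries came from pups labelled *Atp6ap2* fl/Y, and the 3 *Atp6ap2* iECKO libraries from fl/Y pups that also carried *Cdh5-CreERT2*, a Cre recombinase under the promoter of the endothelial gene *Cdh5* that acts once tamoxifen is given. Pups of both genotypes therefore carried the floxed allele, and tamoxifen (100 µg) was given on P1 to P3. Only *Atp6ap2* iECKO pups carried Cre, so an effect of Cre itself cannot be told apart from loss of *Atp6ap2* in these libraries. The labels give the strain as C57BL/6, and the study's methods describe a mixed CD1 and C57BL/6 background.

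In G1, growth signals raise the D-type cyclins, which bind CDK4 or CDK6 and begin to phosphorylate the retinoblastoma protein RB1 and its relatives p107 and p130. This frees the activating E2F factors from repression, and among their targets are the E-type cyclins and *E2f1* itself. Cyclin E with CDK2 then completes the phosphorylation of RB1 and helps to fire replication origins. E2F8, like E2F7, is an atypical E2F that is made late in this wave and represses E2F targets. In the postnatal lung the capillary bed is still expanding, so that dividing endothelial cells are present at this age.

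*Atp6ap2*, the deleted gene, was present at 7490, 5815 and 5681 normalized counts in the 3 controls (replicates 1 to 3, in that order here and below), and at 4220, 2336 and 1982 in the deleted libraries. It fell in the libraries labelled as deleted (log2 fold change -1.22 ± 0.26 (SE), limma adjusted *P* = 0.0306), and *Atp6ap2* iECKO replicate 1 kept the most. Normalized counts are counts per gene that the authors had already scaled between libraries, and their totals were between about 26243900 and 28725800 per library. The commonest value below 20, which tracks the worth of about 1 read, was 2.26 to 2.34 in control libraries and 1.51 to 1.87 in *Atp6ap2* iECKO libraries, so the latter were sequenced somewhat more deeply. By this measure the lowest value of any of the 10 genes, 192 for *Ccne1*, was about 83 times that of 1 read. Although all 6 samples are labelled fl/Y, *Xist*, the RNA of the inactive X chromosome, was high in 4 libraries, and it was as low as 31.7 in the third control and 19.3 in the second deleted library. Of 10 endothelial markers 1 passed the test (*Tek*, lower), whereas 7 of 9 tested fibroblast markers and 7 of 10 mural markers were called lower. Over all genes tested 4.97% were called lower. Without overlap between genotypes 7 fibroblast and 9 mural markers were lower and 0 higher, against 15% and 14.7% of all genes tested. Their summed normalized counts ranged from 45976 to 78096 (fibroblast) and from 13133 to 19773 (mural) in controls, and from 18605 to 23992 and from 5428 to 6950 in *Atp6ap2* iECKO libraries. The fibroblast marker *Lum* was at 0 in 3 libraries and no other marker on these lists was at 0. No epithelial or leukocyte marker passed limma (0 of 10 each, and 0 below an unadjusted *P* value of 0.05). Over all genes tested these shares were 8.25% and 23.9%. The part of these other cell types in the results below was not tested.

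Cyclin E, 1 of the 3 D cyclins, CDK4 and E2F1 transcripts were higher in *Atp6ap2* iECKO iLECs. *Ccnd1*, *Ccne1*, *Ccne2*, *Cdk4* and *E2f1* rose by 1.43- to 2.08-fold, which is 5 of the 10 genes, while over all genes tested 3.28% were called higher. None of the 10 fell (0 also at an unadjusted *P* value below 0.05, which 23.9% of all genes tested met in either direction), where 4.97% of all genes tested were called lower and 8.25% in either direction. Over all genes 474 were called higher and 719 lower, and 573 and 599 after rescaling to equal library totals. *Ccnd2*, *Ccnd3* and *Cdk6* had overlapping values between genotypes, and *Cdk2* and *E2f8* were higher in every *Atp6ap2* iECKO library without passing the adjusted test. In total 7 of the 10 genes were higher without any overlap, against 14.7% of all genes tested (15% were lower without overlap, 29.8% either way). The 10 genes had a median log2 fold change of 0.68, and all genes tested one of 0.0049. These calls come from limma on log2 of the normalized count plus 1, with Benjamini-Hochberg adjustment over all genes tested. In bulk RNA, more cells in cycle and more transcript per cell cannot be told apart.

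**Figure D1:**
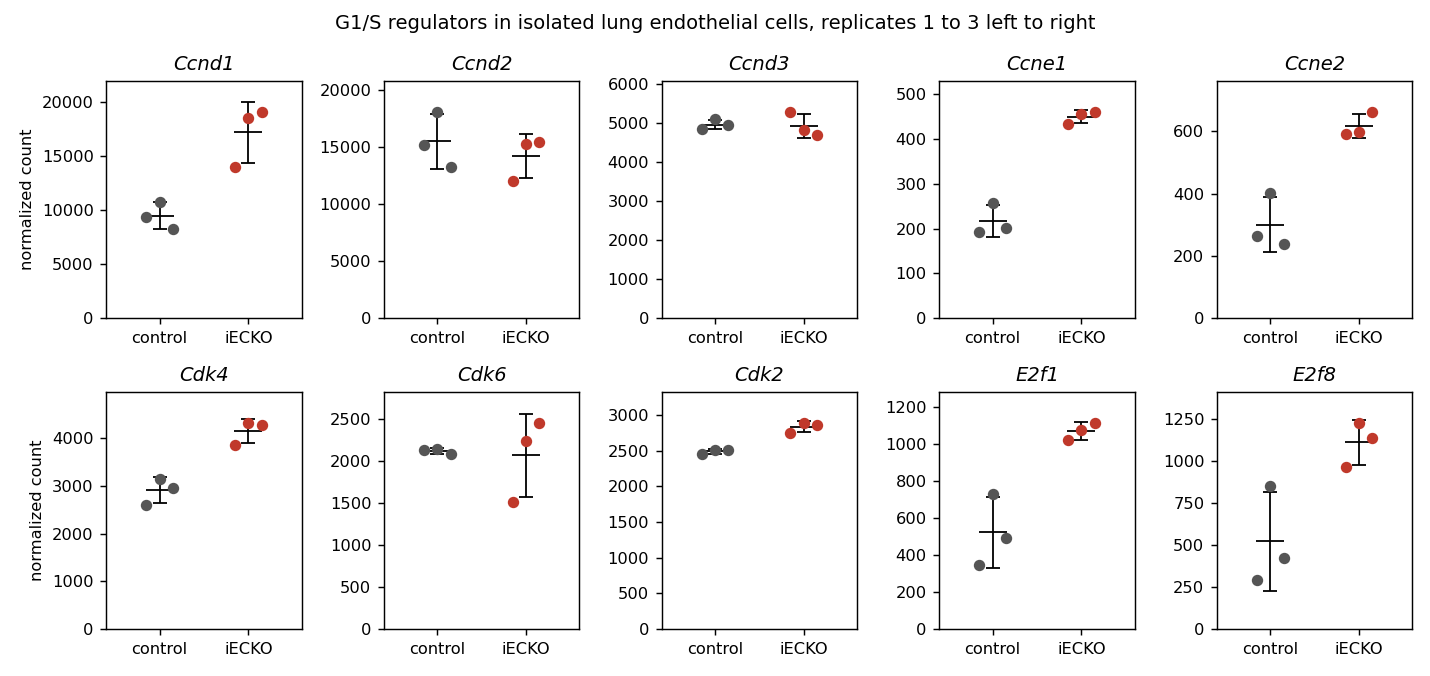
Normalized counts (y axis, from 0) of the 10 genes in each library, with control in grey and Atp6ap2 iECKO (iECKO) in red; the horizontal mark and bars are the mean and SD of 3 libraries. The genotypes are separated for Ccnd1, Ccne1, Ccne2, Cdk4, Cdk2, E2f1 and E2f8 and overlap for Ccnd2, Ccnd3 and Cdk6.

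*Ccnd1* encodes cyclin D1, the D cyclin best known as a sensor of mitogens, and lies on chromosome 7 of GRCm38 from 144929931 to 144939925. Its normalized counts were 9341, 10780 and 8296 in control replicates 1 to 3 and 13955, 18526 and 19078 in *Atp6ap2* iECKO replicates 1 to 3. All 3 *Atp6ap2* iECKO libraries were above all controls. Replicate 1 had the smallest increase and kept the most *Atp6ap2*, and a link between these was not tested. The mean went from 9472 ± 1247 to 17187 ± 2812 (SD, n = 3 each), with a log2 fold change of 0.85 (95% interval 0.51 to 1.19, SE 0.15, limma adjusted *P* = 0.017). The library kit did not mark strand, and 1100 bases of *Ccnd1* exons (23.4%) also lie, on the opposite strand, in exons of the neighbouring gene *Oraov1* (LTO1 in GENCODE). *Oraov1* rose too, from 2000.35, 2084 and 1967 to 2850.11, 3446 and 3736.5 (log2 fold change 0.72, adjusted *P* = 0.0118 from limma), and reads from the shared bases cannot be assigned to one of them.

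*Ccnd2* encodes cyclin D2 and lies on chromosome 6 from 127125162 to 127152193. It had 15201, 18075 and 13258 in control replicates and 12039.9, 15226 and 15453 in *Atp6ap2* iECKO replicates. The genotypes overlapped almost completely, and the interval of the log2 fold change (-0.45 to 0.21, estimate -0.12, adjusted *P* = 0.668 from limma) lay wholly below that of *Ccnd1*. *Ccnd3*, for cyclin D3, lies on chromosome 17 from 47505051 to 47599691. It had 4859, 5099 and 4942 in controls and 5289, 4826 and 4694 in *Atp6ap2* iECKO libraries. Its values were among the steadiest of the 10 genes, with a log2 fold change of -0.01 (95% interval -0.19 to 0.17, adjusted *P* = 0.953 from limma).

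*Cdk4*, on chromosome 10 from 127063534 to 127067920, encodes the kinase that the D cyclins activate in most cell types. Its normalized counts were 2609.84, 3157 and 2968 in control replicates and 3860.11, 4330.5 and 4271 in *Atp6ap2* iECKO replicates. The genotypes did not overlap, and the log2 fold change was 0.52 (95% interval 0.30 to 0.73, SE 0.10, limma adjusted *P* = 0.0212). Of its exon bases 19.7% are shared with *Tspan31* on the opposite strand, whose own log2 fold change was -0.03 (adjusted *P* = 0.854 from limma). *Cdk6*, the other D cyclin kinase, lies on chromosome 5 from 3341485 to 3531008. It had 2133, 2147 and 2083 in controls against 1511, 2236 and 2457 in *Atp6ap2* iECKO libraries. Control values were nearly equal while the *Atp6ap2* iECKO libraries lay on both sides of them, replicate 1 below and the others above (log2 fold change -0.07, 95% interval -0.45 to 0.32, adjusted *P* = 0.851 from limma). Without *Atp6ap2* iECKO replicate 1 the estimate for *Cdk6* was 0.14.

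*Ccne1* and *Ccne2* encode cyclins E1 and E2, which can stand in for each other in most cells, and lie on chromosome 7 from 38097984 to 38107534 and on chromosome 4 from 11191351 to 11204779. *Ccne1* had 192, 257 and 201 in control replicates and 434, 455 and 460.4 in *Atp6ap2* iECKO replicates. *Ccne2* had 263, 402 and 238 in control replicates and 591, 596 and 662 in *Atp6ap2* iECKO replicates. For both genes control replicate 2 was the highest control and still below every *Atp6ap2* iECKO library. The rise was of the same size in both, with log2 fold changes of 1.06 for *Ccne1* (95% interval 0.71 to 1.41, SE 0.15, limma adjusted *P* = 0.0108) and 1.07 for *Ccne2* (0.61 to 1.53, SE 0.20, adjusted *P* = 0.0212). *Ccne2* shares 17.4% of its exon bases with *Ints8* on the opposite strand, which had a log2 fold change of 0.01 (adjusted *P* = 0.962 from limma). *Cdk2*, the kinase partner of cyclin E, lies on chromosome 10 from 128697939 to 128705031. It had 2453, 2516 and 2516 in controls and 2753, 2896 and 2865 in *Atp6ap2* iECKO libraries. The genotypes did not overlap but the difference was small, at 1.14-fold (log2 fold change 0.19, 95% interval 0.02 to 0.35, adjusted *P* = 0.152 from limma). *Cdk2* was therefore not called, and its partners *Ccne1* and *Ccne2* were.

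*E2f1*, an activator of S phase genes, lies on chromosome 2 from 154559407 to 154569892. Its normalized counts were 344, 727 and 493 in control replicates and 1019.85, 1075 and 1114 in *Atp6ap2* iECKO replicates. Controls were widely spread and *Atp6ap2* iECKO libraries were close together (521 ± 193 and 1069.92 ± 47.5, SD, n = 3 each). The log2 fold change was 1.10 (95% interval 0.55 to 1.65, SE 0.24, limma adjusted *P* = 0.0326). *E2f8*, the atypical repressor, lies on chromosome 7 from 48866429 to 48881596 and had 292, 853 and 421 in controls and 968, 1229 and 1137 in *Atp6ap2* iECKO libraries. Its estimate was the largest of the 10 genes (1.23, 95% interval 0.44 to 2.01), but so was its spread among controls, and it did not pass (adjusted *P* = 0.0663 from limma). Without control replicate 2, the library with 853, *E2f8* did pass (log2 fold change 1.66, adjusted *P* = 0.00816 from limma).

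The calls depended on single libraries. With the third control, the second or the third *Atp6ap2* iECKO library left out, the number of the 10 genes called higher went from 5 to 1, 1 and 0, and the share of all genes called higher to 0.455%, 0.223% and 0.196%. *Ccne1* was the gene still called in the first and second of these. Without *Atp6ap2* iECKO replicate 1, 4 were called, *E2f1* being lost (adjusted *P* = 0.0636 from limma). For the 5 called genes the log2 fold changes in these fits kept their direction, and over the fits that left out 1 library they ranged from 0.76 to 1.00 for *Ccnd1*, 0.98 to 1.19 for *Ccne1*, 0.92 to 1.30 for *Ccne2*, 0.44 to 0.58 for *Cdk4* and 0.84 to 1.37 for *E2f1*. Among the 4 libraries with high *Xist*, 2 of each genotype, 0 of the 14094 genes tested passed limma (2196 at an unadjusted *P* value below 0.05) and the estimates were 0.70 for *Ccnd1*, 1.01 for *Ccne1*, 0.94 for *Ccne2*, 0.50 for *Cdk4* and 1.09 for *E2f1*. An exact permutation test of 3 against 3 libraries cannot give a two-sided *P* value below 0.1, and all 7 genes without overlap had that value.

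The same libraries were often highest or lowest within a genotype. Of the 7 genes that were higher without overlap, control replicate 2 was the highest control for 6, all but *Cdk2*, as it was for 51.2% of all genes that were higher without overlap. *Atp6ap2* iECKO replicate 1 was the lowest of its genotype for all 7 of them, against 55.8% of the same genes.

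The D arm and the E arm of this set were then compared within each library. The mean log2 level of the 2 E cyclins minus that of the 3 D cyclins was -5.29, -4.95 and -5.22 in control replicates and -4.24, -4.41 and -4.33 in *Atp6ap2* iECKO replicates. The E arm stood closer to the D arm in every *Atp6ap2* iECKO library than in any control, by 0.82 on the log2 scale between means (-5.15 ± 0.18 and -4.33 ± 0.08, SD, n = 3 each). This is a difference of differences in log2 counts, not of levels, and carries no test because the genes were chosen. It came from a shift of 1.07 in the mean of the E cyclins and of 0.24 in that of the D cyclins, and within the D arm from *Ccnd1*.

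Levels of different genes were compared per kilobase of the principal transcript, and by this length the 3 D cyclins were nearly equal in controls. *Ccnd1* made up 34.7%, 35.4% and 33.3% of the D cyclin transcripts in control replicates, beside 33.4%, 35.0% and 31.5% for *Ccnd2*. In *Atp6ap2* iECKO replicates the share of *Ccnd1* was 45.9%, 51.4% and 52.2%, that of *Ccnd2* 23.4%, 24.9% and 25.0% and that of *Ccnd3* 30.8%, 23.7% and 22.8%. The ratio of *Ccnd1* to *Ccnd2* was 1.01 to 1.06 in controls and 1.96 to 2.09 in *Atp6ap2* iECKO libraries, with no overlap. With all annotated exons in place of the principal transcript the share of *Ccnd1* was higher, 47.6% ± 0.34 and 63.6% ± 2.10 (SD, n = 3 each), and moved the same way. The near equality in controls was therefore lost with that length. *Ccnd3* has 2.113 kb in its principal transcript and 8.775 kb in all annotated exons. The ratio of *Ccne1* to *Ccne2* was 1.11 ± 0.16 in controls and 1.10 ± 0.05 in *Atp6ap2* iECKO libraries, so the E arm kept its make-up.

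**Figure D2:**
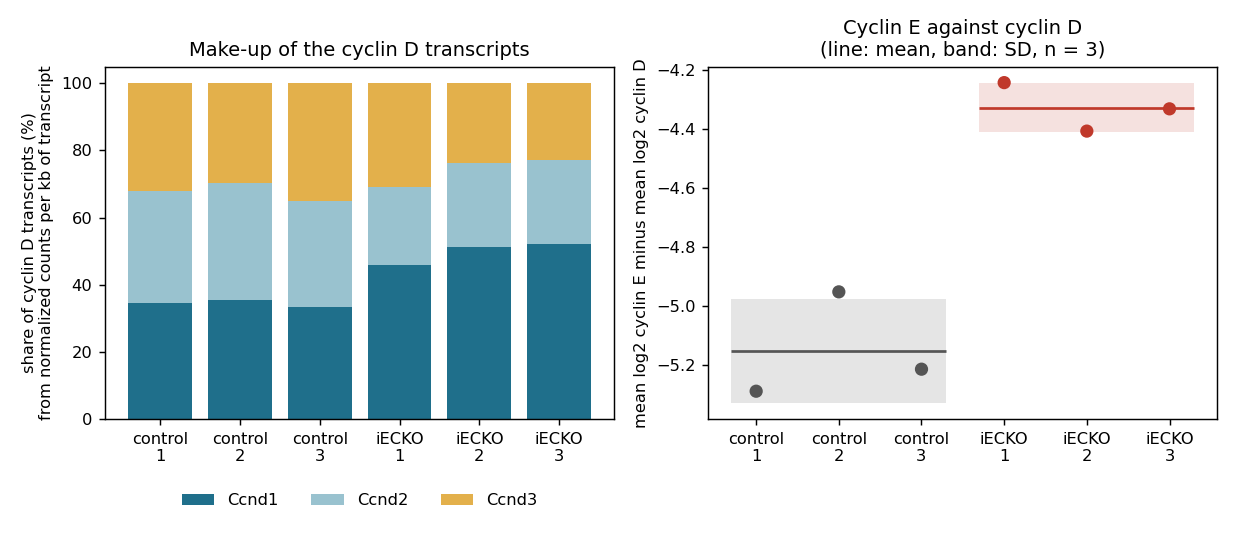
Left, the percent of cyclin D transcripts that each D cyclin makes up in each library, from normalized counts per kilobase of the principal transcript; right, the mean log2 level of Ccne1 and Ccne2 minus that of Ccnd1, Ccnd2 and Ccnd3, on an axis that does not start at 0, with the mean (line) and SD (band) of 3 libraries. The Ccnd1 share was 33.3% to 35.4% in controls and 45.9% to 52.2% in Atp6ap2 iECKO (iECKO) libraries, and the right-hand values do not overlap.

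In normalized counts per kilobase of the principal transcript the order in controls was *Ccnd1* (2533 ± 333), *Ccnd2* (2450.42 ± 383), *Ccnd3* (2350.52 ± 57.8), *Cdk4* (1418 ± 135), *Cdk2* (1114 ± 16.2), *E2f1* (191 ± 70.8), *Cdk6* (184 ± 2.93), *E2f8* (141 ± 79.6), *Ccne1* (108 ± 17.5) and *Ccne2* (100.07 ± 29.3, SD, n = 3 each). These levels and their order depend on the length used. The D cyclins overlapped one another, as did *E2f1*, *Cdk6* and *E2f8*, and both *E2f1* and *E2f8* also overlapped the E cyclins. In *Atp6ap2* iECKO libraries *Ccnd1* (4595 ± 752) stood apart from *Ccnd3* (2336 ± 148) and *Ccnd2* (2250 ± 301). There *Cdk4*, at 2023 ± 125, overlapped *Ccnd2*, and *Cdk6* overlapped *Ccne2*. The E cyclins had the lowest means of the set in controls, although *E2f8* was below both in control replicate 1. Their summed level was 35.8 ± 4.19 times below that of the D cyclins, against 21.3 ± 1.51 times in *Atp6ap2* iECKO libraries.

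Other genes of the G1/S pathway were taken from lists covering regulators upstream and downstream of these 10 genes. Those lists too were chosen with earlier results of these data known. Of 82 tested genes 29 were higher and 1 was lower, against 3.28% and 4.97% of all genes tested, and their median log2 fold change was 0.36. Most of the higher genes, 21, were on a list of 24 E2F targets of S phase, and among the 58 others 8 were higher.

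Of the pocket proteins that hold E2F in check, 0 of 3 passed limma, and 2 were below an unadjusted *P* value of 0.05, against 23.9% of all genes tested. *Rb1* had a log2 fold change of -0.05 (95% interval -0.33 to 0.22), from 2600 ± 263 to 2509 ± 331 (SD, n = 3 each). Its relatives *Rbl1* (p107) and *Rbl2* (p130) had 0.55 and -0.26 (adjusted *P* = 0.0635 and 0.163 from limma). Of the CDK inhibitors, *Cdkn1c* (p57) was the only 1 of the 3 Cip/Kip genes to pass and the only pathway gene called lower. It had 1431, 1319.94 and 1835 in control replicates and 757, 639 and 518 in *Atp6ap2* iECKO replicates, which is a fall of 1.26 on the log2 scale (SE 0.17, limma adjusted *P* = 0.0103). This fall was somewhat smaller than that of the fibroblast and mural markers in the same libraries, whose median log2 fold changes were -1.50 and -1.48. A link between these was not tested. *Cdkn1a* (p21) had 8378, 8938 and 7055 in controls and 11646, 9906 and 10287 in *Atp6ap2* iECKO libraries, above every control but not past the test (log2 fold change 0.39, adjusted *P* = 0.075 from limma). *Cdkn1b* (p27) overlapped between genotypes (log2 fold change -0.07, adjusted *P* = 0.796). Of the INK4 inhibitors, which block CDK4 and CDK6, 0 of 3 tested genes passed limma (0 at an unadjusted *P* value below 0.05), and *Cdkn2a* was too low to test, at 0 to 14.0 in all libraries.

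Among 8 other E2F and DP genes 3 were called higher. Of the 8, 5 were below an unadjusted limma *P* value of 0.05, against 23.9% of all genes tested. Without overlap 6 were higher and 0 lower. *E2f2*, an activator like *E2f1*, had a log2 fold change of 0.78 (adjusted *P* = 0.0281 from limma). *E2f7*, the other atypical repressor, went from 913, 1384 and 898 to 1578, 1803 and 1699.97, a log2 fold change of 0.70 (adjusted *P* = 0.0436). *Tfdp1*, the dimer partner of the typical E2F factors, had 0.46 (adjusted *P* = 0.0411). *E2f4* and *E2f5*, which act mainly as repressors with p107 and p130, did not pass (0.16 and -0.11). Of the 6 genes of the MuvB complex and B-Myb, only *Mybl2*, which encodes B-Myb and is itself an E2F target, passed (1.21, adjusted *P* = 0.0198 from limma). Of these 6 genes, 4 were below an unadjusted limma *P* value of 0.05. Without overlap 4 were higher and 0 lower. Upstream of the D cyclins, *Myc* was the 1 of 11 listed inducers to pass, with 803, 828 and 545 in controls and 1228, 1172 and 1385 in *Atp6ap2* iECKO libraries. This is 0.82 on the log2 scale (SE 0.17, limma adjusted *P* = 0.0274), while *Jun* and *Fos* had -0.45 and -0.39 without passing. Over all genes tested 3.28% were called higher. The 11 inducers had a median log2 fold change of -0.11, and 3 of them had a positive one. Without overlap 1 was higher and 3 were lower, against 14.7% and 15% of all genes tested.

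Genes that act on the proteins rather than the transcripts of this set mostly did not pass. Of 7 tested genes for the turnover of cyclin E and p27 only *Skp2*, the F-box protein that recognises p27, was called higher (0.94, adjusted *P* = 0.0412 from limma). Over all genes tested 3.28% were called higher. Of the 7 genes, 2 were below an unadjusted limma *P* value of 0.05. Without overlap 4 were higher and 1 was lower, against 14.7% and 15% of all genes tested. *Fbxw7*, which marks cyclin E for degradation, had a log2 fold change of 0.01. None of 7 genes for cyclin D turnover and none of 6 for CDK activation passed, with 0 and 1 of them below an unadjusted *P* value of 0.05, where 23.9% of all genes tested lay. Later in the cycle, *Ccna2* (1.06, adjusted *P* = 0.0192 from limma) and *Cdk1* (0.96, adjusted *P* = 0.0162) rose, and the mitotic cyclins *Ccnb1* (0.96, adjusted *P* = 0.0704) and *Ccnb2* (0.51, adjusted *P* = 0.199) did not pass. All 4 had positive estimates and were below an unadjusted limma *P* value of 0.05.

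**Figure D3:**
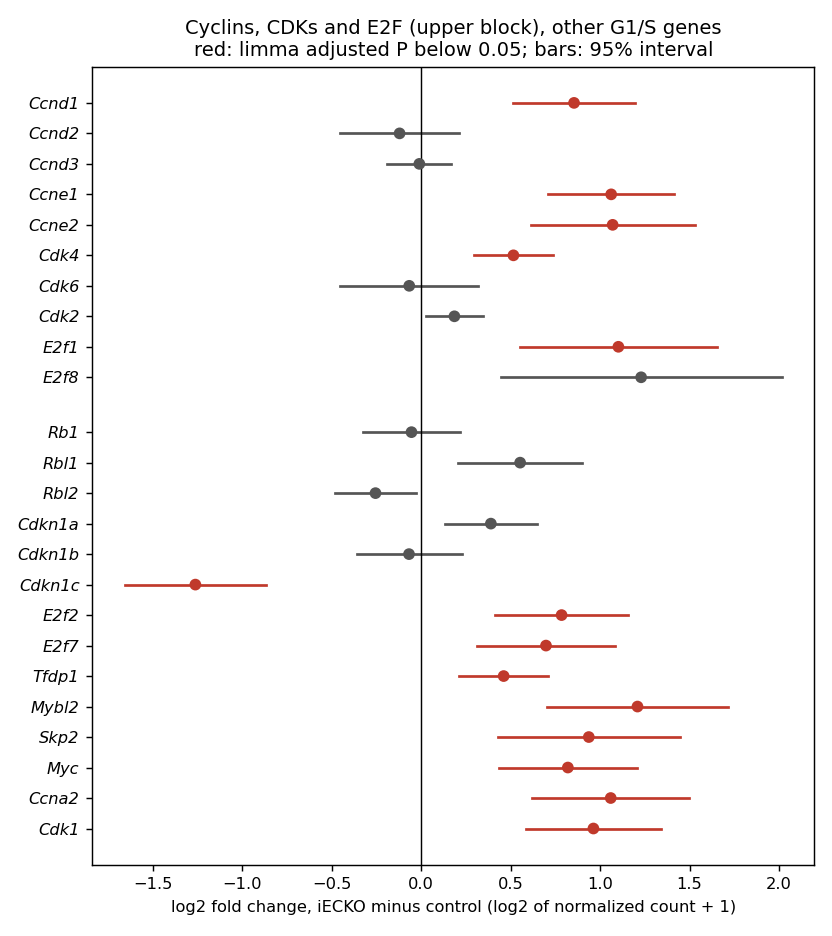
log2 fold change, Atp6ap2 iECKO (iECKO) minus control, with its 95% interval from limma, for the 10 genes (upper block) and for some of the other G1/S genes named in the text; red marks an adjusted P value below 0.05. E2f4, E2f5, Jun, Fos, Fbxw7, Ccnb1 and Ccnb2, which did not pass, and the S phase targets are not drawn. Ccne1 and Ccne2 lie together at 1.06 and 1.07, Ccnd2, Ccnd3 and Cdk6 straddle 0, and Cdkn1c is the only red point below 0, at -1.26.

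All 24 E2F targets of S phase had higher values in every *Atp6ap2* iECKO library than in any control, against 14.7% of all genes tested, and 21 passed. Their log2 fold changes were between 0.47 for *Slbp* and 1.41 for *Pole*, with a median of 1.11 that is close to the values of *E2f1*, *Ccne1* and *Ccne2*. The genes that did not pass were *Cdc6*, *Gins1* and *Rfc4* (adjusted *P* = 0.0653, 0.0737 and 0.0598 from limma). Relative to the mean of controls, the median of these targets was -0.38, 0.55 and -0.12 in control replicates and 0.96, 1.19 and 1.13 in *Atp6ap2* iECKO replicates. Control replicate 2 was again the highest control, for all 24 genes. Leaving out the third control, the second or the third *Atp6ap2* iECKO library left 1 of the 24 genes called in each case, and leaving out the first library of either genotype left 10.

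**Figure D4:**
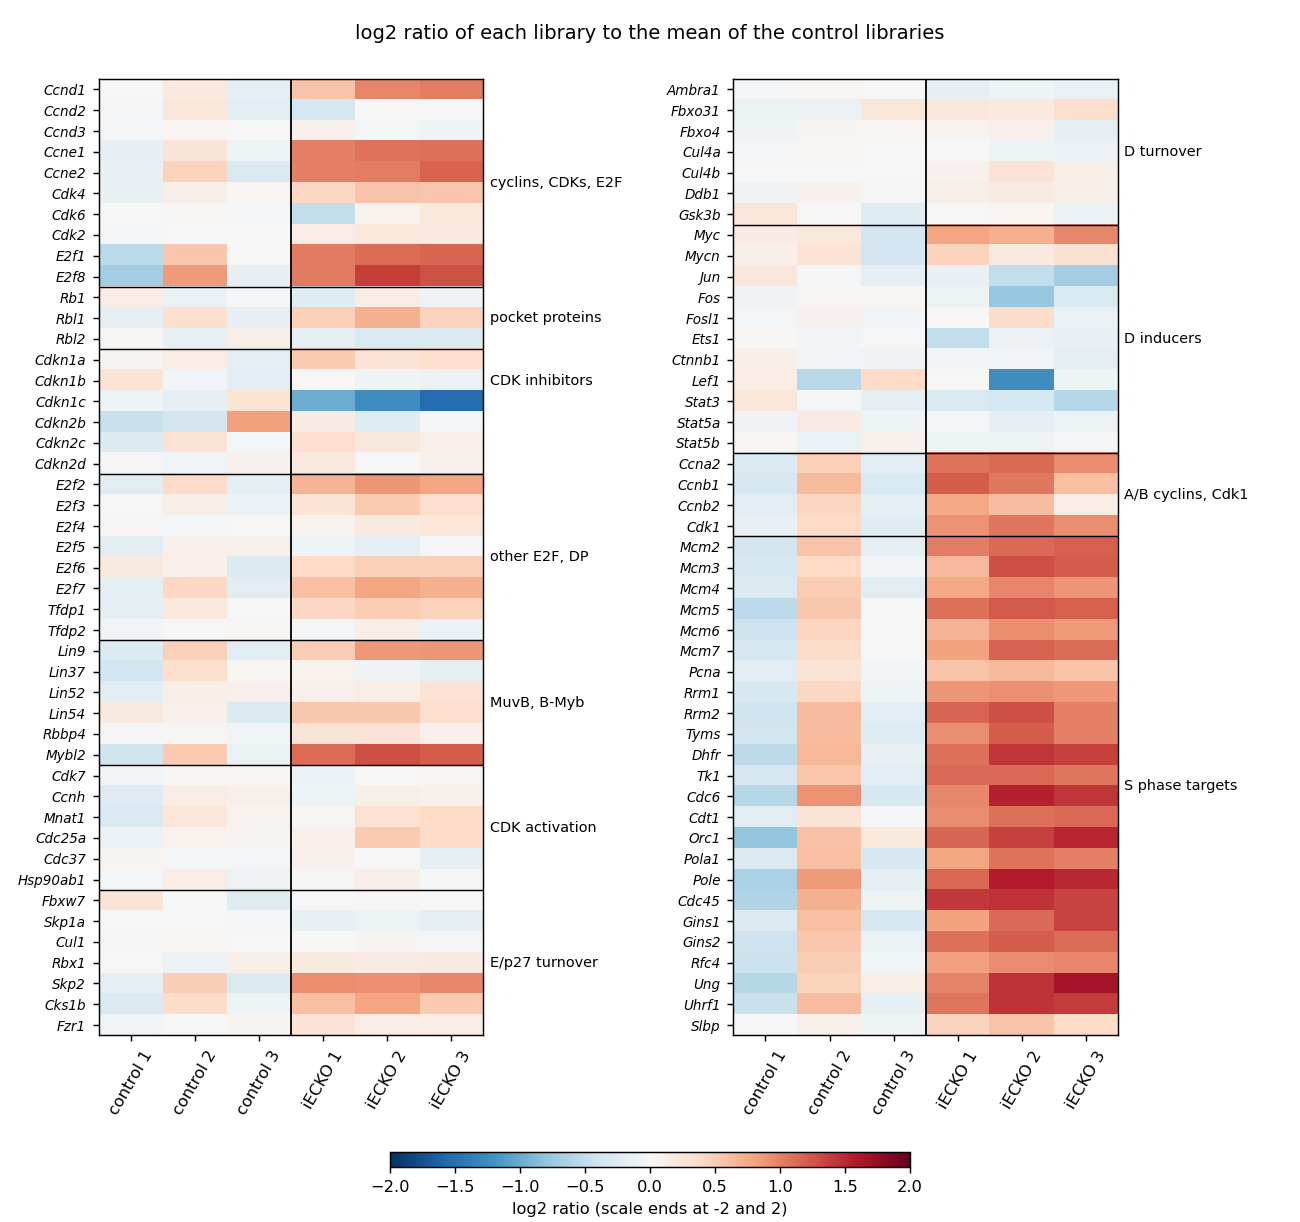
log2 ratio of each library to the mean of the control libraries for the 10 genes and for each tested gene of the pathway lists, in blocks by role, red above and blue below the control mean (iECKO, Atp6ap2 iECKO). The S phase targets, E2f1, E2f8 and the E cyclins form red blocks in the iECKO columns, with control 2 pale red and control 1 pale blue for most S phase targets, and Cdkn1c is blue in all 3 iECKO libraries.

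The genes whose log2 levels over the 6 libraries were most like those of *E2f1*, among 11325 with a mean of at least 100, were *Mcm5* (Pearson r = 0.999), a subunit of the replicative helicase, *Hmgxb4* (0.999) and *Rfc4* (0.998), a clamp loader subunit. Most like *Ccnd1* were *Cgnl1* (0.998), *Nars* (0.998) and *Opa1* (0.996). *Hmgxb4*, *Rfc4* and *Opa1* did not pass limma (log2 fold changes 0.31, 0.91 and 0.12, adjusted *P* = 0.137, 0.0598 and 0.372), while *Mcm5*, *Cgnl1* and *Nars* did. With 6 points in 2 genotypes the r values mostly follow the difference between genotypes, and they are given as a description. Within the set, r with *E2f1* was 0.98 for *E2f8*, 0.96 for *Cdk4*, 0.96 for *Ccne1*, 0.95 for *Ccne2*, 0.90 for *Cdk2* and 0.88 for *Ccnd1*, and it was between -0.07 and 0.04 for *Ccnd2*, *Ccnd3* and *Cdk6*.

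Promoter sequence from RefSeq (GRCm38.p6), from 250 bases before to 50 after the start site, was matched for 7 of the 10 genes in 8 windows, and not for *Ccnd1*, *Ccnd2* and *Ccne2*. Each window was searched on both strands for the E2F words TTCCCGC and TTCGCGC and TTGCCGC and TTGGCGC, for the CHR word TTTGAA that MuvB complexes bind, and for the E-box CACGTG that MYC and related factors bind. These words do not overlap in the windows printed here. An E2F word lay in 2 of the 8 windows and in 9.57% of all 32851 promoter windows, and in 14 of 21 windows of the S phase targets. Those 21 windows covered 19 of the 24 targets. An E-box lay in 2 of the 8 windows, against 7.15% of all. A CHR word lay in 1 of the 8 windows, a lower share than the 17.9% of all. The median share of G and C bases was 66.8% in the 8 windows, 58.3% in those of the S phase targets and 52.7% in all. The shares of windows with a word were not adjusted for this. Shown are the windows of *Cdk4*, which rose and holds 4 E-boxes as only 8 of all windows hold 4 or more, of *E2f8*, with an E2F word and a CHR word, and of *Cdk2*, with 3 E2F words and the smallest difference of the genes without overlap. The matches are in capitals.
Cdk4, chr10:127063285-127063584, plus strand: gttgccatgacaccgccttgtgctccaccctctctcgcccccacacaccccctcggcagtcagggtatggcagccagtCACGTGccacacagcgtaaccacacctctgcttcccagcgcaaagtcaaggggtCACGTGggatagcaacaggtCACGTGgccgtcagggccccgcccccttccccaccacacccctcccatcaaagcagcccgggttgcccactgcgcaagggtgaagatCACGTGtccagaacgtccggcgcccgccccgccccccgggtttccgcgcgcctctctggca
E2f8, chr7:48881547-48881846, minus strand: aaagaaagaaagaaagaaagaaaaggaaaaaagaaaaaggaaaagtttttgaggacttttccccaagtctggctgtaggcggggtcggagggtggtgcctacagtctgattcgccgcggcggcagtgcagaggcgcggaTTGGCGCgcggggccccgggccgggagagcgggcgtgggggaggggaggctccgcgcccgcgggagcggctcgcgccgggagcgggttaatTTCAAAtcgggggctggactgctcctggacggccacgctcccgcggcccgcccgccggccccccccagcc
Cdk2, chr10:128705002-128705301, minus strand: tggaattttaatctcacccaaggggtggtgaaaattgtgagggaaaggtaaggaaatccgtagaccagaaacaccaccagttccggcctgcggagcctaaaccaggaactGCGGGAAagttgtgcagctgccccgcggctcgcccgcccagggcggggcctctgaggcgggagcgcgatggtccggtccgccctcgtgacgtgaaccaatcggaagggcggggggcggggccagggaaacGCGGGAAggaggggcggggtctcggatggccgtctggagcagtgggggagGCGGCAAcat
The E-boxes of *Cdk4* begin at -172, -118, -98 and -11 from the start site. In *E2f8* the E2F word begins at -111 and the CHR word at -20, and in *Cdk2* the E2F words begin at -140, -10 and 41. The matches are words in a window and were not measured as bound sites in these cells. The start sites of 3 windows lie away from the gene's start in GENCODE, by 466 bases for *E2f1*, 2408 for *Cdk6*, which holds the other E-box window, and 88416 for 1 of the 2 *Ccnd3* windows. These 3 windows lie inside the GENCODE bounds of their genes. For *E2f1* and *Cdk6* the sequence before the GENCODE start was therefore not searched. No word was found in the windows of *E2f1*, *Ccne1* and *Ccnd3*, which for *E2f1* says nothing about that sequence.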

How the data were processed

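Per the study's methods, the authors mapped reads to mm10 and counted them per gene with BaseSpace applications (annotation not given in the sources used here). The deposited values, 1 per gene symbol and library, are a normalized signal: the labels call them raw counts, but nearly all are fractional, and all 6 libraries had the same median ratio (1.00365) to the per-gene geometric mean, as values divided by a size factor have. Whole reads were not recovered, so no count model was run, and no counting interval is given. Errors are SD over 3 libraries per genotype, or the standard error (SE) of a log2 fold change from limma.

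Values were analysed as log2 of the normalized count plus 1 for genes with at least 10 in at least 3 libraries, with limma 3.58.1 in R 4.3.3 (mean-variance trend, no covariate, all 6 libraries), and adjusted *P* values below 0.05 were called. Intervals are 95% intervals from limma. Its *P* values set the difference between genotypes against the spread between these samples within genotypes, which limma moderates over all genes tested. The test was run on simulated data in which the spreads were shuffled between genes, so that check cannot speak to the mean-variance trend. Coordinates and transcript lengths are from GENCODE M21 (GRCm38). The 10 genes, the gene lists, the named genes (the 10 genes, called genes of each list, *Rb1*, *Cdkn1a*, *Cdkn1b*, and the 3 most correlated with *E2f1* and *Ccnd1*), *Oraov1* and other overlapping genes and the motifs were chosen with earlier results of these data known, and other genes were named after their values were seen. Alternatives were pseudocounts, scalings, filters, thresholds, covariates, variance models and each library left out. Exact permutation tests used scipy 1.17.1 and figures matplotlib 3.10.9.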

Additional observations from a re-analysis of the deposited data

How the results depend on the processing

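Pseudocounts of 0.5 and 5, rescaling to equal library totals or upper quartiles, no filter, a filter of 50 and array weights left 5 of the 10 genes called higher and 0 lower, and the difference between arms of 0.82 ranged from 0.76 to 0.92 over all its alternatives. Fewer genes were called higher without limma's mean-variance trend (1), at an adjusted *P* value below 0.01 (0) and in the 4 libraries with high *Xist* (0), an alternative chosen after seeing the data. With each library left out the count was 0 to 6. With presence of *Xist* as a covariate 4 were called.

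Of the pathway lists, 29 genes were called higher, and 19 with the *Xist* covariate, 1 without the trend, 0 below 0.01, 0 in the libraries with high *Xist* and 1 to 36 with each library left out. The 1 gene called lower became 0 below 0.01 and 0 in the libraries with high *Xist*. The 21 S phase targets became 1 without the trend, 0 below 0.01, 0 in the libraries with high *Xist* and 1 to 24 with each library left out. These alternatives also called fewer of all genes tested (304 without the trend, 0 in the libraries with high *Xist*). Fits without a library hold fewer samples.

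The genotypes share replicate numbers. After subtracting each genotype's mean, libraries of equal number had correlations of 0.08 to 0.25 and other pairs -0.21 to 0.10 (control 3 was closest to *Atp6ap2* iECKO 2), so the numbers were not taken to pair the samples. With the replicate block 6 of the 10 genes were higher, *E2f8* being added (adjusted *P* = 0.0215 from limma), and 37 pathway genes were higher and 3 lower.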
